A study of Mus musculus with 9 samples.

Results

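SAFB peaks in coding sequence are the 1531 of 30998 deposited peaks whose midpoint lay in the coding sequence of a protein-coding gene on the peak's own strand (4.94%, 95% Wilson interval 4.70% to 5.19%). The peaks came from RIP-seq, in which RNA bound to a protein is recovered with an antibody and sequenced, of SAFB1 in mouse embryonic stem cells. Coding sequence was taken from any transcript of GENCODE M21, on the mouse build mm10. The rule used position alone, so widths and base content played no part in choosing the peaks. Exon boundaries and gene type did, since each midpoint had to lie in coding sequence of a protein-coding gene.

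All 9 libraries were of male CAST/B6 Rosa26-RMCE embryonic stem cells given doxycycline for 3 days. The SAFB1 antibody was used on wild-type cells, both parental and cloned (3 libraries), and on clones lacking both Safb and Safb2 (2 libraries). IgG was used on wild-type cells (2 libraries). A FLAG antibody was used on 1 of the double-knockout clones, carrying either an eGFP plasmid (1 library) or a plasmid with full-length SAFB1 (1 library). For the SAFB1 plasmid library, the genotype label (wild type) and the title (double knockout) disagree, and its title was taken. Each double-knockout line was 1 clone. The authors deposited a single list of positions with no reads, signal or column for any library. No contrast between antibodies or genotypes could therefore be computed, the depth behind a peak is unknown, and no value below has replicates. Peaks are not replicates of a condition, so the 95% intervals treat peaks, genes or codons as independent and cover counting error only.

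SAFB1 belongs to a small family of nuclear proteins, with SAFB2 and SLTM, that carry a DNA-binding SAP domain, an RNA recognition motif and a tail rich in arginine and glycine. Family members have been linked to splicing, transcription and the nuclear matrix, and SAFB1 is known for binding RNA rich in the purines A and G. In coding sequence, runs of purines spell mostly lysine (AAA, AAG) and glutamate (GAA, GAG) codons, and GA-rich stretches inside exons are known as exonic splicing enhancers. A coding exon is present both in the unspliced transcript, where introns flank it, and in the messenger RNA, where its neighbours do.

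The sequences below show what lay under such peaks in 8 of the genes that held 6 or 7 of them. Each is the 120-base stretch of coding exon with most purines under a peak of that gene, on the coding strand, 5′ to 3′, with purine runs of 6 or more bases in capitals. The stretches lie on mm10 at chr2:180659614-180659733 (minus strand, exon 16 of Dido1), chr14:47663873-47663992 (plus, exon 2 of Ktn1), chr6:34746310-34746429 (plus, exon 5 of Cald1), chr2:140164357-140164476 (minus, exon 3 of Esf1), chr17:56566890-56567009 (minus, exon 14 of Safb2), chr5:34653898-34654017 (minus, exon 5 of Nop14), chr4:138175855-138175974 (plus, exon 21 of Eif4g3) and chr2:160682652-160682771 (plus, exon 4 of Top1). The windows were picked for purines, so their shares, from 68.3% in Nop14 to 87.5% in Cald1, are a description of the richest stretch and not of the peaks as a whole.
Dido1: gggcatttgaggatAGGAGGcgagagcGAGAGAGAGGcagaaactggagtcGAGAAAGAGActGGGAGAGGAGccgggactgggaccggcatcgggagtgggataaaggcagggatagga
Ktn1: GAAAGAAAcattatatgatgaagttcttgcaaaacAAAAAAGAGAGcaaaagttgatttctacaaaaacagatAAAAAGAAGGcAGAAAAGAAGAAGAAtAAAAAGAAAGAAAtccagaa
Cald1: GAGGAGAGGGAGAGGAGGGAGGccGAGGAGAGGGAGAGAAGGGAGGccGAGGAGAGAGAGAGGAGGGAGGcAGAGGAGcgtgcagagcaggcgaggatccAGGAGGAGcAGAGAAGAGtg
Esf1: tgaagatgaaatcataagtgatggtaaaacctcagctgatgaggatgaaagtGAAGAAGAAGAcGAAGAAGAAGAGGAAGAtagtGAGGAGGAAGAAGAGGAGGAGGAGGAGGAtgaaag
Safb2: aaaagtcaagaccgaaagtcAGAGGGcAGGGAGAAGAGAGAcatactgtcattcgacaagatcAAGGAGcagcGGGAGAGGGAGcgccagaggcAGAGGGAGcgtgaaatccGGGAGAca
Nop14: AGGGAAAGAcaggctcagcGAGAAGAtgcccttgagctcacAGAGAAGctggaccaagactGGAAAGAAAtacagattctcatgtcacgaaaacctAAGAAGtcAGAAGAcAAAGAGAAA
Eif4g3: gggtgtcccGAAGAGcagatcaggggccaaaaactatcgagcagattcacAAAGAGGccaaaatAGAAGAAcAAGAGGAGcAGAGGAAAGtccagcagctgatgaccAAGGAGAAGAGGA
Top1: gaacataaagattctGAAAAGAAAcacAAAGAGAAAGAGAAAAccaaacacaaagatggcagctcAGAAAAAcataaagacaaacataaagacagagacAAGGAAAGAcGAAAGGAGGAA

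Some peaks were poor in purines. The next pair comes from the middle of the 2 peaks of lowest purine share that lay wholly inside a coding exon and were long enough for such a window, in Gpr1 (chr1:63183695-63183814, minus strand, exon 3), a G protein-coupled receptor, and in Grik3 (chr4:125632329-125632448, plus strand, exon 3), a kainate-type glutamate receptor subunit. The Gpr1 window was 31.7% purine and the Grik3 window 42.5%, and neither window holds a purine run of 6 bases. Outside its window the Gpr1 peak held a purine run of 7 bases.
Gpr1: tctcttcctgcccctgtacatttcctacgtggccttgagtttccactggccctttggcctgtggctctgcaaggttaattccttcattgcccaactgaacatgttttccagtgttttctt
Grik3: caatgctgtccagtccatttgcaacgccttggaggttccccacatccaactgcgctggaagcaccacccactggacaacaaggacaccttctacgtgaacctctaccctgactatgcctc

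The widths of coding-sequence peaks rose to a high in 2 places, one near the length of an ordinary exon and one near a kilobase. Their median width was 734 bases (quartiles 233.5 and 1279, range 74 to 5062). Widths under 300 bases made up 31.3% of them (479 peaks, interval 29.0% to 33.7%), against 15.5% of the 736 peaks centred in 3′ untranslated regions (13.1% to 18.3%) and 23.9% of the 15805 peaks centred in introns of protein-coding genes (23.2% to 24.6%). Narrow peaks were not particular to coding sequence, since 30.2% of the 10331 peaks outside any gene of their strand were also under 300 bases (29.4% to 31.1%). At the other end, 36.7% of coding-sequence peaks were 1000 bases or wider, against 43.2% in 3′ untranslated regions and 31.4% in introns. Coding-sequence peaks of 200 to 283 bases made up 12.3% and those of 800 to 1131 bases 15.9%. In between, 5.94% were 400 to 566 bases wide, while 10.5% of peaks in 3′ untranslated regions and 12.5% in introns had such widths.

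**Figure D1:**
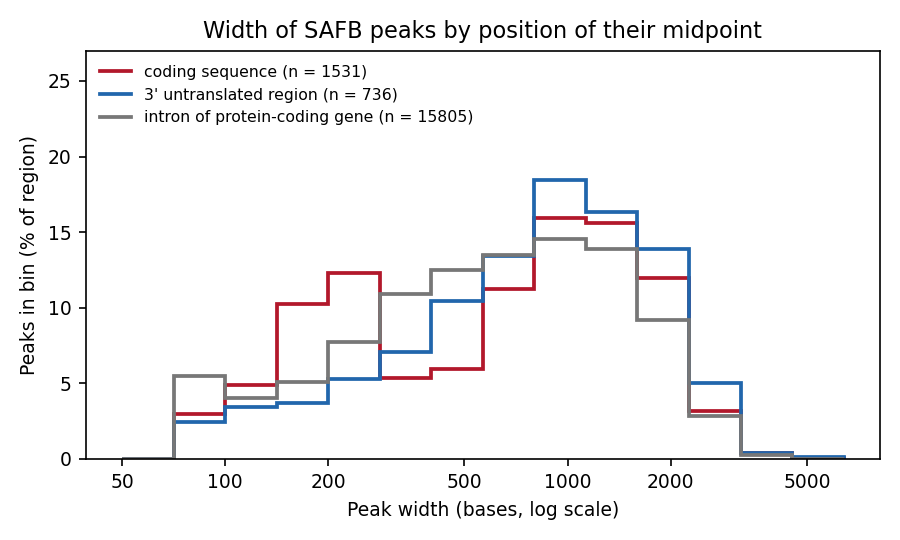
Width of SAFB peaks (x axis, bases, log scale) against the percent of each region's peaks per width bin (y axis), for midpoints in coding sequence (n = 1531), 3′ untranslated region (n = 736) and intron of a protein-coding gene (n = 15805). The coding-sequence line has 1 rise below 300 bases and another around 1000 bases.

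A midpoint in coding sequence did not mean a peak confined to it. Of the 1320105 bases in these peaks, 75.3% were coding bases of the gene, 11.2% lay in its other exonic sequence, 12.0% in its introns and 1.42% outside it. The median peak was 80.0% coding. Peaks wholly in coding sequence numbered 247 (16.1%), while 967 (63.2%) reached at least 1 base of intron when the exons of all transcripts were counted. In spite of that reach, 1435 of the 1531 (93.7%) met exactly 1 exon of their transcript, and the largest number of exons under 1 peak was 7. The strands held similar numbers, 768 on plus and 763 on minus.

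Peak edges followed exon ends. Of the 917 peaks that met 1 exon only and had it internal to the transcript, 613 (66.8%, 63.7% to 69.8%) had both edges within 75 bases of the exon's ends, 75 being the cycles of the sequencing kit. For internal exons shorter than 300 bases this share was 83.8% (404 of 482, 80.3% to 86.8%), with a median peak of 200.5 bases on a median exon of 143. It was 52.4% for exons of 300 to under 1000 bases (133 of 254) and 42.0% for exons of 1000 bases or more (76 of 181, 35.0% to 49.3%). Even there the widths followed the exons, with a median peak of 1337 bases on a median exon of 1467. Over all 917, the Spearman correlation of peak width and exon length was 0.807, a description across peaks that share 1 list. The rule puts each midpoint in an exon, which by itself favours near edges for narrow peaks on short exons. How much of these shares comes from the rule was not tested.

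**Figure D2:**
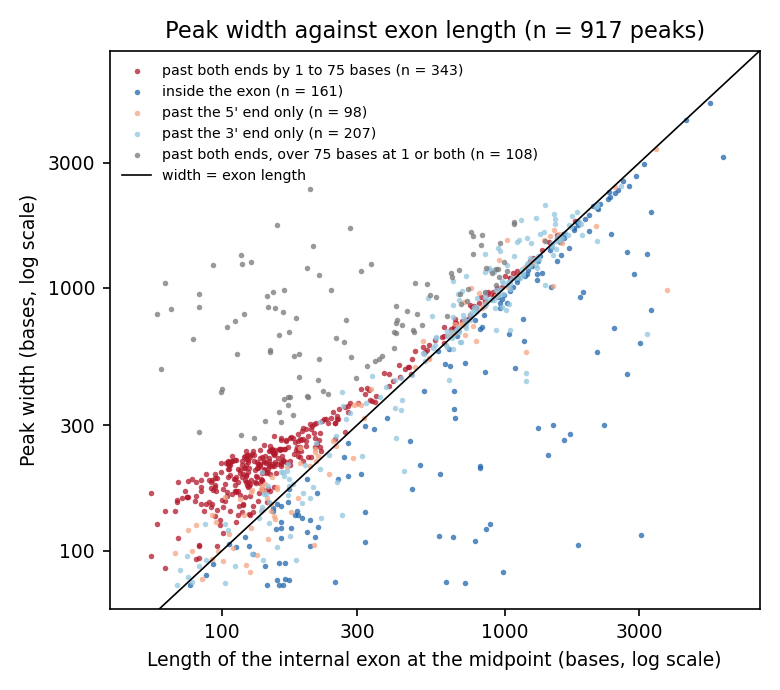
Width of each peak (y axis, bases, log scale) against the length of the internal exon at its midpoint (x axis, bases, log scale), for the 917 peaks that met 1 internal exon, coloured by where their edges lay. The line marks equal width and length; most points lie close to it, and the 343 peaks past both ends by 1 to 75 bases form a band just above it.

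The edges stopped at a short distance beyond the splice sites. At the 5′ end of the exon, 177 edges lay 1 to 24 bases past it, 202 lay 25 to 49 bases past it and 79 lay 50 to 75 bases past it, but only 2 lay 76 to 99 bases past it. At the 3′ end the counts were 185, 229, 102 and 9. Edges farther out were scattered, with 14 at the 5′ end and 24 at the 3′ end from 100 to under 150 bases past it.

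**Figure D3:**
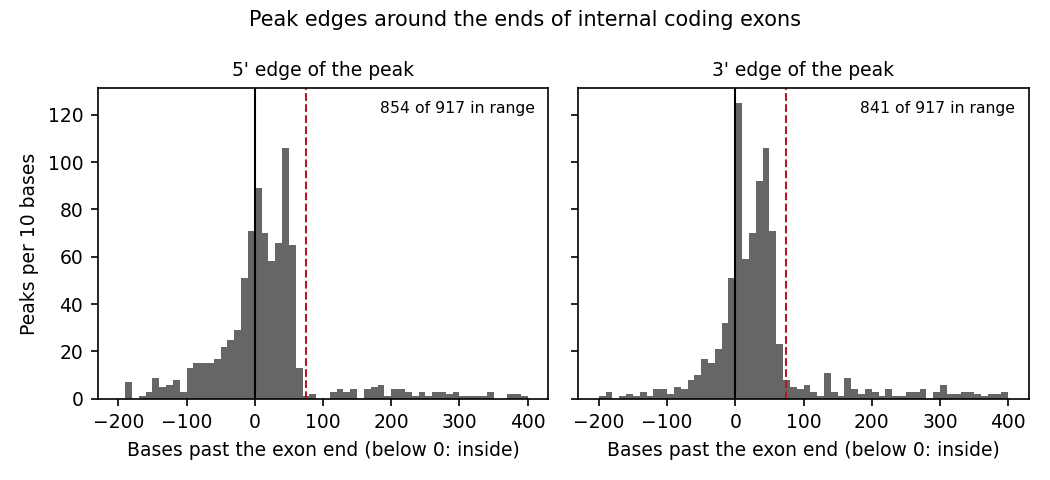
Position of peak edges relative to the end of the internal exon at the midpoint (x axis, bases, above 0 in the intron), as peaks per 10 bases (y axis), for 5′ edges (left) and 3′ edges (right) of the same 917 peaks. The solid line is the exon end and the dashed line 75 bases past it; few edges lie between 76 and 99 bases.

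By the position of both edges, the 1531 peaks fell into 6 kinds. The most frequent lay inside 1 exon (462 peaks, 30.2%), with a median width of 1004.5 bases in exons of median length 1995, and 234 of them were in the last exon. Next were peaks that outlined an exon, running past both of its ends by 1 to 75 bases (347 peaks, 22.7%, in 225 genes). Outlining peaks had a median width of 222 bases (quartiles 183.5 and 306.5) on exons with a median of 146, ran a median of 37 bases into the upstream intron and 38 into the downstream one, and sat on internal exons in 343 cases. Another 265 peaks passed only the 3′ end of their exon, 216 only the 5′ end, 145 passed both ends with more than 75 bases at 1 or both, and 96 met several exons.

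Peaks on the opposite strand over coding sequence gave a comparison, chosen after the values above were seen. A further 627 peaks had their midpoint antisense to coding sequence and not in coding sequence of their own strand, so 70.9% of peaks over coding sequence of 1 strand only were on the sense strand (1530 of 2157, 69.0% to 72.8%). Only 3.99% of the antisense peaks outlined the exon opposite them (25 of 627, 2.72% to 5.82%), against 22.7% on the sense strand (20.6% to 24.8%). On internal exons under 300 bases, 38.3% of antisense peaks had both edges within 75 bases (62 of 162, 31.1% to 45.9%), against 83.8%. The correlation of width and exon length was 0.417 over 279 antisense peaks on 1 internal exon. Of the antisense peaks 28.5% overlapped a sense peak, and 10.9% of the coding-sequence peaks overlapped a peak of the opposite strand. Whether reads of 1 strand leaked to the other was not tested.

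Peaks were denser in long coding exons. Counting midpoints over the merged coding blocks of all protein-coding genes, density was 21.4 per Mb in blocks under 100 bases (101 peaks) and 24.9 per Mb in blocks of 100 to under 200 (353 peaks, exact Poisson interval 22.3 to 27.6). It was 35.3 per Mb at 200 to under 500 bases, 71.7 per Mb at 500 to under 1000, and 84.8 per Mb at 1000 or more (477 peaks, 77.4 to 92.8). Blocks of 500 bases or more thus held 3.28 times as many peaks per Mb as blocks under 200 (2.92 to 3.69). Blocks of at least 1000 bases made up 15.4% of coding bases and held 31.2% of the peaks. The intervals of the 2 shortest classes overlap, as do those of the 2 longest. The list carries no expression values, so these densities are per length alone.

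**Figure D4:**
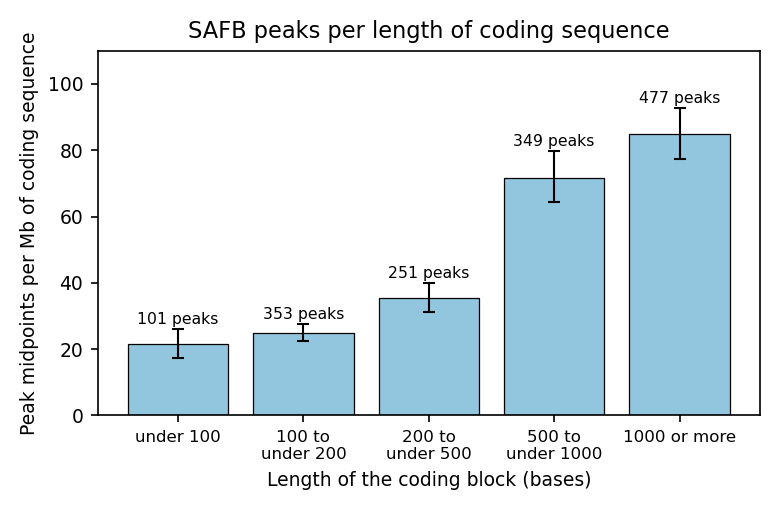
SAFB peak midpoints per Mb of coding sequence (y axis) by the length of the coding block that held them (x axis, bases), over all protein-coding genes, with exact 95% Poisson intervals as error bars and the number of peaks above each bar. Density goes from 21.4 per Mb in the shortest blocks to 84.8 per Mb in the longest.

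The widest coding-sequence peaks filled giant exons. In Macf1, a giant linker of actin and microtubules, a peak of 5062 bases lay inside exon 36, which is 5331 bases long. A peak of 4373 bases in Nexmif, an X-linked gene of neuronal development, covered all but the first and last base of its 4375-base exon 4. In Setbp1, which encodes a SET-binding nuclear protein, 3374 bases were under a peak on the 3448-base exon 4. Zbed6, a transcription factor gene with 1 exon, had 3301 bases under a peak, and Amer1, a regulator of WNT signalling, had 3291. These 5 peaks held between 51.1% and 56.7% purines in their coding bases, so the widest peaks were not the purine-rich ones.

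In 10 genes with at least 1500 coding bases, all or nearly all of the coding sequence was under peaks. Coverage was complete in Akap5, a scaffold for protein kinase A, in Papolb, a testis poly(A) polymerase, in Socs5, a suppressor of cytokine signalling, in the homeobox gene Zhx1, in the zinc finger genes Zfp397, Zfp768 and Zfp770, and in L1td1, a gene derived from the LINE-1 retrotransposon and expressed in embryonic stem cells. It was 99.3% in Hirip3, whose product binds the histone chaperone HIRA, and 99.2% in the predicted gene Gm4787. L1td1 and Zfp397 had 2 peaks each and the other 8 genes had 1. The Papolb peak, 2953 bases wide and 65.2% coding, ran 607 bases past the 5′ end of this single-exon gene. Whether that peak belongs to another transcript was not tested. In L1td1 a peak of 897 bases covered the 876-base exon 1 of the 2-exon transcript used, with 2 and 19 bases to spare. The annotated gene starts upstream of that exon. A second peak of 1999 bases covered the last exon of the same transcript and held a purine run of 65 bases. Across all 1179 genes with such a peak, the median share of coding sequence covered was 33.0%.

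Along the coding sequence, midpoints were spread over all of its length. In 5 equal parts, from the start to the end, the shares were 15.9% (14.2% to 17.9%), 22.4%, 23.7% (21.6% to 25.9%), 21.1% and 16.9% (15.1% to 18.8%), so the ends held fewer than the middle. The start codon was under 13.0% of the peaks and the stop under 23.1%. A peak that reaches far past the start or stop can have its midpoint outside coding sequence and is then not counted. How far the midpoint rule lowers the shares at the ends was not tested. By exon, 995 peaks lay on internal exons, 390 on last exons, 101 on first exons and 45 on single-exon transcripts.

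The 1531 peaks fell in 1179 of the 21951 annotated protein-coding genes, which is 5.37% of them. Genes with a peak had longer coding sequences, with a median of 2256 bases against 1207 over all protein-coding genes. The share of genes with a peak was 1.17% for coding sequences under 1000 bases, 5.18% from 1000 to under 2000, 11.3% from 2000 to under 4000 and 16.2% from 4000 on (209 of 1293, 14.3% to 18.3%). Most of these genes had 1 such peak (955), while 153 had 2, 40 had 3 and 31 had 4 or more. In 90 genes peaks lay on neighbouring exons of 1 transcript, and in 16 genes 2 or more peaks shared an exon.

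Many of the same genes carried peaks elsewhere in the transcript. An intronic peak on the sense strand was present in 49.5% (584 of 1179, 46.7% to 52.4%), with 3495 intronic peaks in all or 35.9 per Mb of their introns. A peak in the 3′ untranslated region was present in 9.33% (110 genes) and the density there was 47.2 per Mb (39.3 to 56.2). No other sense peak was found in 470 genes (39.9%). The shares and densities over all protein-coding genes are not set beside these values, so whether these genes differ from others was not tested. Intronic peaks were more frequent in the 225 genes with an outlined exon, at 64.4% (58.0% to 70.4%), than in the 439 genes with a peak inside an exon, at 44.4% (39.8% to 49.1%), and a gene can be in both sets. The sets were not matched for number or length of introns. Of the 462 peaks inside an exon, 23 lay on single-exon transcripts, against 0 of the 347 outlining peaks.

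Outlined exons were most frequent in genes with several coding-sequence peaks. Among the 150 peaks of the 31 genes with 4 or more, 92 outlined an exon (61.3%, 53.3% to 68.8%) and the median width was 230.5 bases. Among the 955 peaks that were alone in their gene, 105 did (11.0%, 9.16% to 13.1%) and the median width was 960. In 16 of the 31 genes more than 50% of the peaks outlined an exon, and 25 of the 31 also had an intronic peak. An intronic peak was present in 49.5% of all 1179 genes, and the 31 were not matched for intron length.

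Every peak was an outline in Top1, Eif4g3, Nucks1, Rtf1 and Hook1, and 5 of 6 were in Nop14 and Esf1. Top1 (chr2:160645888-160722764, plus strand) encodes the topoisomerase that relaxes supercoils ahead of RNA polymerase. It had 6 peaks, on exons 4, 6, 7, 8, 9 and 10 of 21, and all 6 outlined their exon. Their widths lay between 182 and 218 bases on exons of 76 to 124, with 40 to 54 bases past the 5′ ends and 16 to 58 past the 3′ ends. The purine share of coding bases was 79.0% under the exon 4 peak, which holds the sequence printed above, 77.6% on exons 7 and 8, and 55.2% to 60.7% on exons 6, 9 and 10, against 59.8% outside the peaks. The Top1 exons thus split into a purine-rich group and a group at the level of the rest of the gene, with outlines of the same width.

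Nop14 (chr5:34638536-34660148, minus strand), a factor of small ribosomal subunit assembly, had 1 peak on each of exons 2 to 7 of 18, in an unbroken row, and none on the other exons. Peak widths were 211, 179, 154, 166, 231 and 192 bases in exon order, on exons of 123 to 142 bases, and 5 of the 6 outlined their exon. The other, on exon 3, ended 13 bases short of the exon's 3′ end. All 6 held more purines than the rest of the coding sequence, from 60.5% to 68.9% against 56.4%. Esf1, a nucleolar protein of pre-ribosomal RNA processing, had 6 peaks on exons 2, 3, 8, 9, 10 and 11 of 14, with 5 outlines. They reached 75.4% and 74.7% purine on exons 10 and 9, with purine runs of 25 and 28 bases, and 54.5% on exon 11, against 60.1% outside. Esf1 had no peak in its introns, in spite of 6 exons under peaks.

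Lyar and Ddx21, both of the nucleolus, had 4 peaks each. Lyar, a regulator of cell growth, had 72.2% of its 1164 coding bases under peaks, the widest of which (891 bases, on exon 6) was 70.6% purine. Ddx21, a DEAD-box RNA helicase, had peaks on exons 1 to 4 and none farther down. The one on its 660-base exon 2 was 711 bases wide, with 25 and 26 bases past the ends, and 67.4% purine against 56.7% outside.

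The SAFB family's own transcripts all held peaks in coding sequence. Safb2 had 6 (exons 1, 2, 4, 7, 13 and 14 of 21, 131 to 584 bases wide) and Safb 5 (exons 4, 5, 14, 15 and 16 of 21, 142 to 411 bases wide). The genes lie head to head on chromosome 17. In Safb2 the purine share was 72.5% on exon 14, shown above, and 72.7% on exon 2, against 61.0% outside the peaks, while exon 4 was at 58.0%. In Safb the mean over the 5 peaks was 1.72 points below the rest of the coding sequence, while the mean over the 6 in Safb2 was 4.50 points above it. Sltm had 1 peak of 1933 bases, which met several exons. Safb and Safb2 are the genes deleted in the double knockout, and with no values per library the list cannot show whether their peaks were lost there.

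SR proteins are splicing factors that carry runs of arginine and serine. Pnisr, Ppig and Rbm25 were listed here as SR proteins or SR-related splicing factors. Pnisr had 5 peaks over 73.7% of its coding sequence, and its last exon held 1 of 1110 bases with 65.3% purine. Ppig, a cyclophilin with an SR tail, had 4 over 74.8% of its coding sequence, of which the widest (1532 bases, reaching into exon 14) was 72.7% purine against 54.4% outside. Rbm25 had 4, between exons 11 and 15, with 83.1% purine under the 520-base peak at exon 11 and a purine run of 29 bases. Wbp4, a spliceosome-associated protein not on that list, had 4 peaks. Its exon 5 held a purine run of 36 bases although that peak's purine share of 60.3% was below the 63.1% outside.

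Several of the 31 genes encode long coiled-coil proteins. Ktn1, kinectin of the endoplasmic reticulum, had 7 peaks in 43 exons, 6 of them outlines between 156 and 252 bases wide. Its coding sequence is purine-rich throughout, with 62.3% outside the peaks and a mean of 61.8% inside. Cald1, the actin-binding protein caldesmon, had 1 peak on each of exons 4 to 9 of 15, and all 6 were richer in purines (67.4% to 74.5%) than the remaining coding sequence (57.8%). The Cald1 peak on exon 5 was 1226 bases wide, began at the first base of the 1021-base exon and ran 205 bases past it. Cald1 also had 20 intronic peaks.

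Rock1, a kinase of the actin cytoskeleton, had 6 peaks between exons 16 and 24, all above its outside purine share of 59.3%. Bicd1, an adaptor of the motor dynein, had 5 on consecutive exons 3 to 7 covering 73.1% of its coding sequence. On its 1095-base exon 5 the peak measured 1098 bases, 3 past the 5′ end and none past the 3′ end. Hook1, another dynein adaptor, had 4 outlines of 171 to 220 bases on exons of 84 to 141. Tmf1, a Golgi coiled-coil protein, had 5 peaks and Akap9, a centrosome and Golgi scaffold, also 5. The Akap9 peak on exon 7 was 2319 bases wide in an exon of 2346. Cep290, a protein of the cilium base, had 4, all below its outside purine share of 62.9%.

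The remaining genes with 4 or more peaks have varied roles. Dido1, a chromatin-binding PHD finger protein, had 7 peaks over 79.7% of its 7048 coding bases, among them 1 of 3240 bases inside its 4620-base last exon and only 1 outline. Rtf1, an elongation factor linked to the Paf1 complex, had 4 peaks and Nucks1, a small nuclear protein, also 4, and all 8 were outlines. In Nucks1 they sat on exons 3, 4, 5 and 6 of 7, the smallest being a peak of 165 bases around an exon of 56. Smc6, part of a complex for DNA repair, had 5, of which 4 were outlines. Fam208a, a subunit of a silencing complex, Zfc3h1, a nuclear RNA decay factor, and Bbx, an HMG-box protein, had 4 each. Eif4g3, a scaffold of translation initiation, had 6, all outlines, with purine shares from 41.5% on exon 24 to 70.7% on exon 21. Magi2, Ccdc18, Ccdc34 and Adgrv1 also had 4 each. Ccdc34 had the largest mean purine excess of the 31 genes, 17.9 points, with 85.5% purine under its exon 4 peak, while Adgrv1, a giant adhesion receptor, had 4 peaks in 90 exons.

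The coding bases under peaks held slightly more purines than the rest of the same coding sequences. Over the 1452 peaks with at least 30 coding bases inside and outside, the median purine share was 55.5% inside and 54.4% outside. The median of the paired differences was 1.45 percentage points (0.989 to 1.77), and 878 peaks (60.5%, 57.9% to 63.0%) were above 0. Inside shares ranged from 35.1% to 88.5%, and 27.8% of the peaks had 60% or more. The excess was of A, whose mean share was 31.3% inside and 28.7% outside. G was lower inside by a mean of 0.59 points (25.4% against 25.9%), and T by 1.52.

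The purine excess was larger in shorter peaks and was not detectable from 1000 bases on. Peaks that outlined an exon differed from the rest of their coding sequence by a median of 3.96 points (2.81 to 5.05), and 73.4% of them were above 0. Peaks inside 1 exon differed by 0.36 points (-0.35 to 0.70), an interval that includes 0. Peaks past the 3′ end only (1.59, 0.56 to 2.43) and those reaching farther past both ends (1.22, 0.53 to 2.61) lay between. By width, the difference was 3.11 points under 300 bases, 1.72 (0.87 to 2.16) from 300 to under 1000 and 0.18 (-0.35 to 0.64) from 1000 on. Peaks on internal exons were 1.99 points higher (1.59 to 2.43), while those on last exons differed by 0.21 (-0.46 to 0.79). Single peaks of a gene differed by 0.74 points and the 150 peaks of genes with 4 or more by 4.84 (3.19 to 5.97). Of those 31 genes, 26 had a mean above 0. Width, exon place and the number of peaks per gene go together in these data, and their separate parts were not tested. Counted over peaks, so that genes with several peaks enter several times, the purine share outside was a median of 57.8% for outlining peaks and 53.2% for peaks inside an exon.

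**Figure D5:**
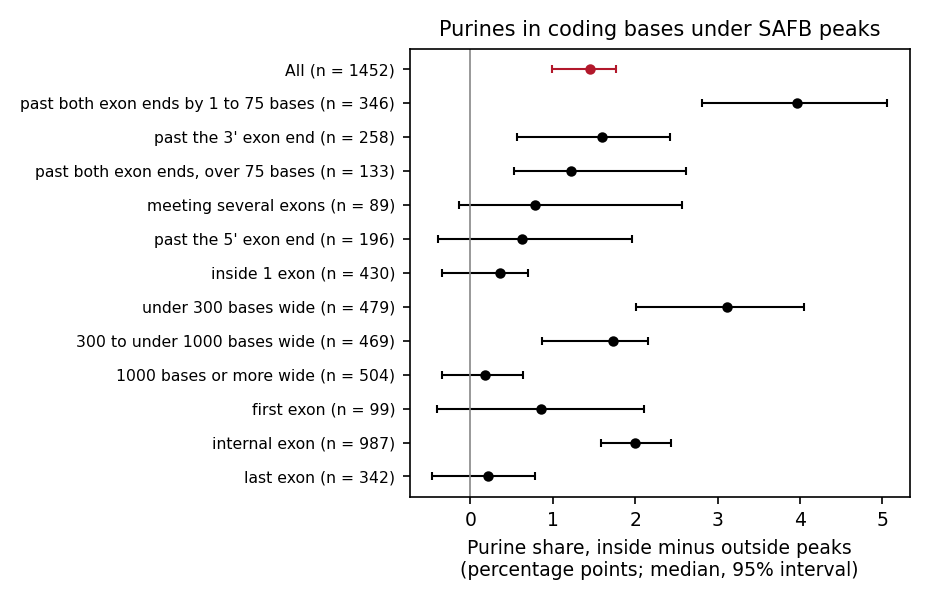
Median difference in purine share between coding bases inside a peak and the other coding bases of the same transcript (x axis, percentage points), for all 1452 peaks with both values and for subsets by edge position, width and exon place, with 95% order-statistic intervals. Outlining peaks sit at 3.96 points and peaks of 1000 bases or more at 0.18.

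At the extremes, 245 peaks lay wholly inside 1 coding exon. The richest in purines was in Hsp90aa1, the stress-inducible cytosolic chaperone HSP90, where 140 bases of exon 5 were 74.3% purine with a run of 23. It was followed by Gnas, the stimulatory G protein alpha subunit locus (87 bases, 72.4%), Cttnbp2, a cortactin-binding protein (263 bases, 67.7%), Ccdc88a, an actin-binding coiled-coil protein (1011 bases, 66.9%), and Myo3a, a myosin of hair cells (126 bases, 66.7%). The poorest were Gpr1 (239 bases, 35.1%), the kinase gene Cdk20 (77 bases, 40.3%) and Grik3 (188 bases, 40.4%), the first and last of which are shown above.

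By reading frame, the excess was at the middle base of the codon. Purines made up 54.8% of middle positions inside peaks and 51.8% outside, a difference of 3.04 points, while position 1 differed by 0.18 and position 3 by -0.27. The middle base largely sets whether an amino acid is hydrophobic or polar. These positions pool all peaks, those of genes with symbols that start with Zfp included. Histidine and cysteine codons also have a purine in the middle. Histidine made up 3.29% of codons inside and 2.49% outside, and cysteine 2.47% and 1.97%. Shares by position without the Zfp genes are not set beside these, so their part in the excess was not tested. Over 330064 codons inside and 758430 outside, codons for lysine and glutamate made up 16.3% and 14.8%, a ratio of 1.10 (1.09 to 1.11, with codons taken as independent). In outlining peaks they made up 22.4% against 17.9%, a ratio of 1.26 (1.23 to 1.28), and inside-exon peaks were at 1.09. Codons made only of purines were 1.11 times as frequent inside as outside.

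Among single amino acids in outlining peaks, lysine was the highest by ratio (10.3% inside, 8.0% outside, ratio 1.29), then glutamate (12.1% against 9.89%, 1.23) and serine (1.16). At the other end were tryptophan (0.63), cysteine (0.72), phenylalanine (0.73) and tyrosine (0.74). Of the 4 lysine and glutamate codons, AAG had a ratio of 1.31, GAA 1.27, AAA 1.27 and GAG 1.17. Over all peaks the highest ratios were instead histidine (1.32) and cysteine (1.25), followed by lysine (1.16) and serine (1.15). Without genes whose symbols start with Zfp, a set chosen after these values were seen, histidine was at 1.07 and cysteine at 0.94. Serine was then highest at 1.17, followed by proline (1.102), lysine (1.097) and glutamate (1.075).

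Purine hexamers were counted in the coding sequence on the sense strand only, since the peaks are stranded RNA. The hexamer GAAGAA, its frame-shifted forms, which overlap it in any longer repeat of the same triplet, and GAGGAG were searched. The count covers 1036 of the 1531 peaks. It kept 326 of the 347 outlining peaks but 226 of the 462 inside an exon, so the shares do not describe all peaks. Among the 1036 peaks, 48.3% held GAAGAA (45.2% to 51.3%). The mean over all windows with the same number of coding bases in the same coding sequences was 37.4%. AAGAAG was in 47.1% against 35.2%, AGAAGA in 50.0% against 37.3% and GAGGAG in 30.1% against 26.4%. At least 1 of the 4 was in 72.5% of the 1036 peaks and 61.9% of windows. In the outlining peaks counted, GAAGAA was in 50.3% (44.9% to 55.7%) against 36.2%. In the counted peaks inside an exon it was in 41.2% (34.9% to 47.7%) against 33.2%. A match to these letters is a description of the sequence, and not a binding site.

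Outlined exons were skipped in the annotation about as often as other exons, with overlapping intervals. Of the 343 internal outlined exons, 29 (8.45%, 5.95% to 11.9%) were left out of another coding transcript of the gene, against 294 of the 3361 other internal coding exons of the same transcripts (8.75%, 7.84% to 9.75%). The annotation counts transcripts that exist in any tissue, and their use in these cells is not in the list.

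Gene lists by function were set beside the 5.37% of protein-coding genes with a peak in coding sequence. They were also set beside all genes in the length class that holds the list's median coding length. The lists were chosen with earlier results of these data known, so their shares are descriptions only. No set test was run, and the place of an interval relative to such a share is not a test. Coiled-coil scaffolds of the cytoskeleton, Golgi and endoplasmic reticulum had the largest share of any list of more than 3 genes, 17 of 40 (42.5%, 28.5% to 57.8%) with 48 peaks. Their median coding length was 4194.5 bases, a length at which 16.2% of genes had a peak. In these genes 10.8% of coding bases were under peaks, against 2.72% over all protein-coding genes. Centrosome and cilium proteins stood at 12 of 42 (28.6%), among them Akap9, Cep290 and Ofd1, and kinesin and myosin motors at 9 of 49 (18.4%, 9.98% to 31.4%), among them Kif5b with 3 outlined exons in a row, 14, 15 and 16. The motors' median coding length was 4068 bases, and their interval includes the 16.2% of genes in that length class. The centrosome list (17.2% to 43.6%) had a median of 3604.5 bases, in the class where 11.3% of genes had a peak. That list also holds genes well outside this class, such as Akap9 with 11467 coding bases, so it was not matched for length.

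Nuclear RNA and chromatin lists followed. SR proteins and SR-related splicing factors had a peak in 11 of 38 genes (28.9%, 17.0% to 44.8%) and 13.7% of their coding bases under peaks, at a median coding length of 1632 bases where 5.18% of genes had one. Chromatin remodelers had 11 of 35 (31.4%, 18.6% to 48.0%) and a median of 5175 coding bases, with Chd6 and Ercc6 at 2 peaks each after Dido1. Histone methyltransferases and demethylases had 8 of 39 (20.5%), with 2 peaks each in Nsd2 and Setd5. Genes of DNA topology, cohesin, replication and repair had 9 of 51 (17.6%), with Smc4 at 3 peaks. RNA polymerase II, Mediator and elongation factors had 8 of 43 (18.6%), with Cdk13 at 2. The intervals of these last 3 lists include the share of genes of their length.

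Ribosome biogenesis and nucleolar proteins had a peak in 7 of 60 genes (11.7%, 5.77% to 22.2%), close to the 11.3% of genes of their median coding length of 2176.5 bases, and 16 of their 22 peaks were in Esf1, Nop14 and Lyar. DEAD and DEAH box helicases had 6 of 39 (15.4%), where Dhx57 and Ddx10 had 1 peak each beside the 4 of Ddx21. Translation initiation factors had 4 of 43 (9.30%), with 3 peaks each in Eif5b and Eif3a. All 3 in Eif5b were outlines. The intervals of the helicases (7.25% to 29.7%) and of the initiation factors (3.68% to 21.6%) include the shares for genes of their length, 11.3% and 5.18%. No ribosomal protein gene had one (0 of 54, which allows a share of up to 5.56%), and their median coding length of 579 bases falls in the class where 1.17% of genes had a peak. Of the 54, 2 had a sense peak outside coding sequence. The share of all protein-coding genes with such a peak is not set beside this count.

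In lists of other kinds the intervals included the share of genes of their length. Ubiquitin ligases and deubiquitinases had 6 of 52 (11.5%, 5.40% to 23.0%), with 2 peaks in Usp53. Cadherins and protocadherins outside the protocadherin gene clusters had 6 of 43 (14.0%), among them Fat3 with 2 peaks in its 3306-base exon 2. Collagens, laminins and other matrix genes had 4 of 41 (9.76%, 3.86% to 22.5%) despite a median of 5448 coding bases, and 0.342% of their coding bases were under peaks. They included Fbn1, Lamb1 and Col7a1 with 1 peak each. All of these shares come with wide intervals from few genes, and the lists were not matched for expression.

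The clustered protocadherins, neuronal cell adhesion genes that lie in 3 tandem arrays on 1 chromosome, were counted separately after their values were seen. Every gene of the gamma array held a coding-sequence peak (21 of 21, Wilson interval from 84.5%), against 11.3% of all genes of 2000 to under 4000 coding bases. None of the alpha array did (0 of 14, which allows up to 21.4%), nor any of the beta array (0 of 22, up to 13.6%). All 25 gamma peaks were in first exons, the large variable exons of the array, and 24 of them lay inside the exon, with widths from 115 to 2466 bases and a median of 1000. Pcdhga11 had 3 peaks, Pcdhga5 and Pcdhga6 had 2 each, and the other genes had 1. The peak of Pcdhga1 covered 84.9% of its coding sequence and that of Pcdhgc3 81.4%, while that of Pcdhga10 covered 4.12%. Their median purine share was 52.1%, with a median difference of 1.31 points from the rest of the coding sequence. As background, each variable exon of the gamma array is spliced to the same constant exons, so the precursor RNA of an upstream gene contains the variable exons of the genes after it. These exons also resemble one another, so reads could be shared between them, and the 21 genes are not independent of each other.

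Pluripotency and early lineage regulators had a peak in 1 of 38 genes (2.63%, 0.466% to 13.5%). Their median coding length was 1356 bases, where 5.18% of genes had a peak, a share inside that interval. The gene with a peak was Zfp42, also called Rex1, a marker of embryonic stem cells. In Zfp42 a peak of 998 bases lay in the last exon over 98.4% of the coding sequence. Another 9 genes of the list had sense peaks outside coding sequence only. In coding sequence, a peak was present in 1 of 8 embryonic stem cell markers (Zfp42), 1 of 7 primitive endoderm markers (Dab2), 1 of 5 fibroblast markers (Fbn1), 1 of 4 striated muscle markers (Ttn) and in none of 4 neuron and 3 liver markers. Counting any sense peak, the numbers were 2 of 8 for embryonic stem cells, 5 of 7 for primitive endoderm, 2 each for fibroblast, muscle and neuron markers, and 0 of 3 for liver. Over all protein-coding genes, 5.37% had a peak in coding sequence. The share of all genes with any sense peak is not set beside these counts. Peaks are not expression values, so they cannot check the label of the cells.

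Genes with symbols that start with Zfp, which mostly encode zinc finger proteins, were singled out after their values were seen. They held a coding-sequence peak in 109 of 397 cases (27.5%, 23.3% to 32.0%), against 5.37% of all protein-coding genes, without matching for coding length. Their 124 peaks had a median width of 1635.5 bases, and 102 of them lay in the last exon, where such genes usually encode their array of zinc fingers, built from repeated cysteines and histidines. Their purine share was not higher than that of the rest of the coding sequence, with a median difference of -0.51 points over 114 peaks. Members of this family share similar finger-coding sequence, so reads that match several of them could have been placed in any, and how such reads were treated is not given in the sources used here.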

How the data were processed

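RNA recovered by immunoprecipitation from 9 libraries in 5 groups was reduced by the authors to 1 list of 30998 stranded peaks. Its start and end positions are given, and its score, as deposited, is 500 in every peak and was not used. The submitters' processing notes name STAR, Subread, featureCounts and the build mm10, without versions. How peaks were called, and whether libraries were pooled, is not given in the sources used here. Depth is unknown.

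Starts were taken as counted from 0. Peaks were placed by midpoint on GENCODE M21 (GRCm38, the assembly mm10 names), with 1 transcript per gene for exon numbers (14 peaks needed another). Sequence came from the GENCODE M21 transcripts. Composition needed 30 coding bases inside and outside. Medians carry order-statistic intervals, shares Wilson and counts Poisson intervals (95%, Python 3.11.15, SciPy 1.17.1). No test was run. Placement and density code was tested on simulated peaks.

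Coding-sequence peaks and 17 gene lists (710 entries) were chosen with earlier results of these data known. Named genes are those with 4 or more peaks, the 10 with the largest covered share, up to 3 per list, the 5 highest and 3 lowest purine shares among peaks inside 1 coding exon, and the 5 widest. The protocadherin and Zfp genes were singled out later. The alternatives concern which peaks count as coding, the exons used, the bases compared and the genes left out.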

Additional observations from a re-analysis of the deposited data

How the results depend on the processing

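Of the alternatives run, none turned a direction, but several moved a value. Requiring any coding base in place of the midpoint gave 3083 peaks, and dropping all peaks narrower than the list's median left 873. Requiring 50% coding bases gave a median width of 688.5 bases. With exons of transcripts tagged basic, 30.7% lay inside 1 exon and 67.1% reached an intron. The purine difference was 0.361 points for peaks inside 1 exon (-0.350 to 0.702), an interval that includes 0. It was 2.24 points when the outside bases came from coding exons at least as long (1033 peaks). The lysine and glutamate ratio was 1.085 for peaks inside 1 exon and, without Zfp genes (a choice made after seeing the data), 1.08. The other alternatives left the count of peaks, the count of genes, the purine difference, the codon ratio and the density ratio (3.35 with transcripts tagged CCDS) within 1.5 times for counts or within the interval of the main value.

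No paired analysis was possible because the list holds no values per library, which also bars leaving out a library. Depth per peak is unknown, so no peak's precision is given. The coding-length classes, the lists and the densities were not adjusted for expression.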
